A study of Mus musculus with 9 samples.

Results

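De novo lipogenesis, the making of new fatty acids from acetyl-CoA, was described here through 10 genes measured in mouse liver. The enzymes are encoded by Acly, Acaca, Acacb, Fasn, Elovl6 and Scd1, NADPH supply is covered by Me1, and control of the pathway by Srebf1, Mlxipl and Thrsp. The genes were chosen by symbol and found on the array through the RefSeq accession of each probe. They were represented by 17 of 55681 non-control probes, and the 10 genes stand among 20972 named genes. All 17 probes were well above background on all 9 arrays, so every probe of every gene entered the test and no filter on low values touched the list. Acaca and Me1 had 3 probes each, Acacb, Acly and Mlxipl had 2 each and the others had 1. Where a gene had several, the probe with the highest mean over the 9 arrays was taken for the gene, and the other probes are given beside it.

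Total liver RNA came from male mice at 20 weeks of age, with 3 mice in each of 3 groups and 1 array per mouse. STAM mice (STelic Animal Model) are C57BL/6J mice given a low dose of streptozotocin, a toxin of the insulin-secreting beta cells, soon after birth and a high-fat diet from weaning. The STAM-NON mice carried both treatments and received no drug, and the STAM-INS mice carried both and were injected subcutaneously with insulin at a dose set by blood glucose. The Normal mice received no streptozotocin and, per the methods, ordinary chow, so that streptozotocin and diet together separate both STAM groups from Normal. Whether the STAM pieces were tumour or tumour-free liver, the feeding state and the hour of collection are not given in the sources used here. The labels do not say whether the mice of a group shared a litter, so p-values measure the spread between these mice only.

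In the liver, citrate that leaves the mitochondria is split to acetyl-CoA, carboxylated to malonyl-CoA and built into palmitate, which is then elongated and desaturated. Feeding turns the pathway on through insulin, which raises and activates the SREBP-1c form of the Srebf1 product, and through glucose, which activates ChREBP, the product of Mlxipl. Both factors act on promoters of the same enzymes, and fatty liver disease is known for lipogenesis that stays high.

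Values are centred log2 signal, the log2 spot intensity after background subtraction, from which the 75th percentile over the array was taken off. A value of 0 is therefore the 75th percentile of that array, and levels of different genes are not compared. Differences are means of the group named in front minus means of the group named after it, and a gene passed the test at a limma adjusted p below 0.05 over all 26278 tested probes. In whole liver, fewer cells of a type and less RNA per cell cannot be told apart.

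All 6 STAM arrays lay on 1 slide and all 3 Normal arrays on another, so for both comparisons with Normal slide and group cannot be told apart. Between 46.2% and 65.0% of the non-control spots of an array were well above background. The share was 59.3% and 63.1% for STAM-NON replicates 1 and 3 and 65.0% for STAM-INS replicate 1, all in row 1 of their slide. The other arrays, among them STAM-NON replicate 2 of that row, had 46.2% to 51.1%. The part of this unevenness in the differences was not tested. Hepatocyte markers were well above background on every array for 11 of 11 genes, Alb and Hnf4a among them.

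Promoter windows from RefSeq (GRCm38.p6, 250 bases before to 50 bases after a start site) were on hand for 9 of the 10 genes, with 13 windows in all. Those of the 4 genes that were higher in STAM-INS than in Normal are printed, with both of Mlxipl, the gene that was lower. They show which of the motifs named below lie near the starts of these genes. Each is written 5′ to 3′ on the strand of the gene, and capitals mark the letters searched for on both strands. These were the E box CACGTG (the core that ChREBP and USF factors read), the sterol response element TCACNCCAC and its shorter form CACCCCAC (read by SREBP), the NF-Y box CCAAT and the Sp1 box GGGCGG.
Fasn, chr11:120824498-120824797, minus strand: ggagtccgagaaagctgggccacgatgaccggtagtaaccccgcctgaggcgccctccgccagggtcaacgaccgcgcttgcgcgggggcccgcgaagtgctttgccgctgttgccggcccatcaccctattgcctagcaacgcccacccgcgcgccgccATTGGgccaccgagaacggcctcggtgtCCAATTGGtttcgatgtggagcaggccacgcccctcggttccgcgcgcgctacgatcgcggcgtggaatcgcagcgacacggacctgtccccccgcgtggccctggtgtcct
Acacb, chr5:114165268-114165567, plus strand: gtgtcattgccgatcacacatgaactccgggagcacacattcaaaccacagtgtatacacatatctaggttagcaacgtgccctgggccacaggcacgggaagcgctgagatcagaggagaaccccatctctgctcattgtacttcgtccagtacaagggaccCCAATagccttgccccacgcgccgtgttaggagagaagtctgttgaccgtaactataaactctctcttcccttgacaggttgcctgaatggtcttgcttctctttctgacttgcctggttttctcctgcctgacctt
Acly, chr11:100527951-100528250, minus strand: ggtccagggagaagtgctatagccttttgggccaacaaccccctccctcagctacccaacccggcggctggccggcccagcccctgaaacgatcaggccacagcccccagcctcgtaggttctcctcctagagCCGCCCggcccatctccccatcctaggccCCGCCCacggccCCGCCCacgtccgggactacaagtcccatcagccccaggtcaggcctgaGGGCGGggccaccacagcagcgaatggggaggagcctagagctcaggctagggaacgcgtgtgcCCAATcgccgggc
Elovl6, chr3:129532136-129532435, plus strand: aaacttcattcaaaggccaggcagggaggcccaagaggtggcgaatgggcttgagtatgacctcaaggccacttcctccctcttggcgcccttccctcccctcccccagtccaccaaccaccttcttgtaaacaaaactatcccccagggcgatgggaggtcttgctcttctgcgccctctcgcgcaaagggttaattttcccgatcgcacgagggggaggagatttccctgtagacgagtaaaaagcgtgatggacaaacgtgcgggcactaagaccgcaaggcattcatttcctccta
Mlxipl, upstream start, chr5:135089640-135089939, plus strand: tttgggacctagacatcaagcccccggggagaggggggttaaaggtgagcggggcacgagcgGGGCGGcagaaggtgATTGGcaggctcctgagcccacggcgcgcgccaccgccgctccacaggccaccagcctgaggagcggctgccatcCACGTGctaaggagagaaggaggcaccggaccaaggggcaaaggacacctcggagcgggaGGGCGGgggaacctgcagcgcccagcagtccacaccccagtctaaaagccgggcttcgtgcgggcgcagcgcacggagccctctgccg
Mlxipl, downstream start, chr5:135106641-135106940, plus strand: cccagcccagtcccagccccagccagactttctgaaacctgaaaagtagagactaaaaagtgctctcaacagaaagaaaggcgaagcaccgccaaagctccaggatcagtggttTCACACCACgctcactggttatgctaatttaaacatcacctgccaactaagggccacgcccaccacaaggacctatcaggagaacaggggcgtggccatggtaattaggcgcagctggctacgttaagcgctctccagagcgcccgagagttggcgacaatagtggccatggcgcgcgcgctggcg

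The NF-Y box was the most common of these motifs near the lipogenesis genes, in 8 of their 13 windows and 7 of 9 genes, against 37.4% of the 32851 promoter windows of the table. The Fasn window held 3, the first bases of which lay 90, 62 and 59 bases before the start, and the last pair overlap. The Sp1 box lay in 5 of 13 windows, against 35.7% of all, and the Acly window held 4 of them beside 1 NF-Y box. The full sterol response element lay only in the downstream Mlxipl window, 136 bases before the start, against 1.24% of all windows. The E box lay only in the upstream Mlxipl window, 98 bases before the start, against 7.15% of all. The shorter sterol response element, present in 2.87% of all windows, was in none of the 13. Elovl6 and Acaca had no match to any of these motifs, so the Elovl6 window carries no capitals. A match is a description of letters, and its absence says only that these letters are not in this window.

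The first comparison asked how the untreated disease model differed from Normal liver. Of the 10 genes, 1 (Acacb) was higher, 1 (Mlxipl) was lower and 8 did not pass the test, against 16.1% of all probes called, 6.3% higher and 9.76% lower. Acacb was 1.89-fold higher and Mlxipl 2.27-fold lower in STAM-NON. Of the 10 differences 8 were positive, and Scd1 was the other one, beside Mlxipl, below 0.

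Acacb encodes the acetyl-CoA carboxylase of the mitochondrial surface, whose malonyl-CoA also restrains fatty acid oxidation. Its centred log2 signal was 2.6, 3.15 and 2.90 in the Normal mice, 3.72, 3.53 and 4.14 in STAM-NON and 4.32, 5.13 and 4.73 in STAM-INS. The groups did not overlap, and Normal was lowest and STAM-INS highest. STAM-NON exceeded Normal by 0.92 (SE 0.25, n = 3 each, limma adjusted p = 0.0414). Its other probe differed by 1.01 (limma adjusted p = 0.0175). The call on the main probe was lost without STAM-NON replicate 1 or 3, without STAM-INS replicate 3 and without any 1 of the Normal mice, with limma adjusted p from 0.0612 to 0.119. Of all 24 alternative analyses, these included, 13 kept the call and 11 lost it.

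Mlxipl encodes ChREBP, the glucose-sensing activator of lipogenic and glycolytic genes. The Normal mice had 6.64, 6.64 and 6.81, the STAM-NON mice 5.26, 5.59 and 5.69, and the STAM-INS mice 6.36, 5.86 and 6.0. Every STAM-NON value lay below every STAM-INS value, and these lay below every Normal value. The difference of STAM-NON from Normal was -1.18 (SE 0.17, limma adjusted p = 0.00831). The other Mlxipl probe gave a smaller difference of -0.30 (limma adjusted p = 0.106), so the 2 probes differed in size and call.

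**Figure D1:**
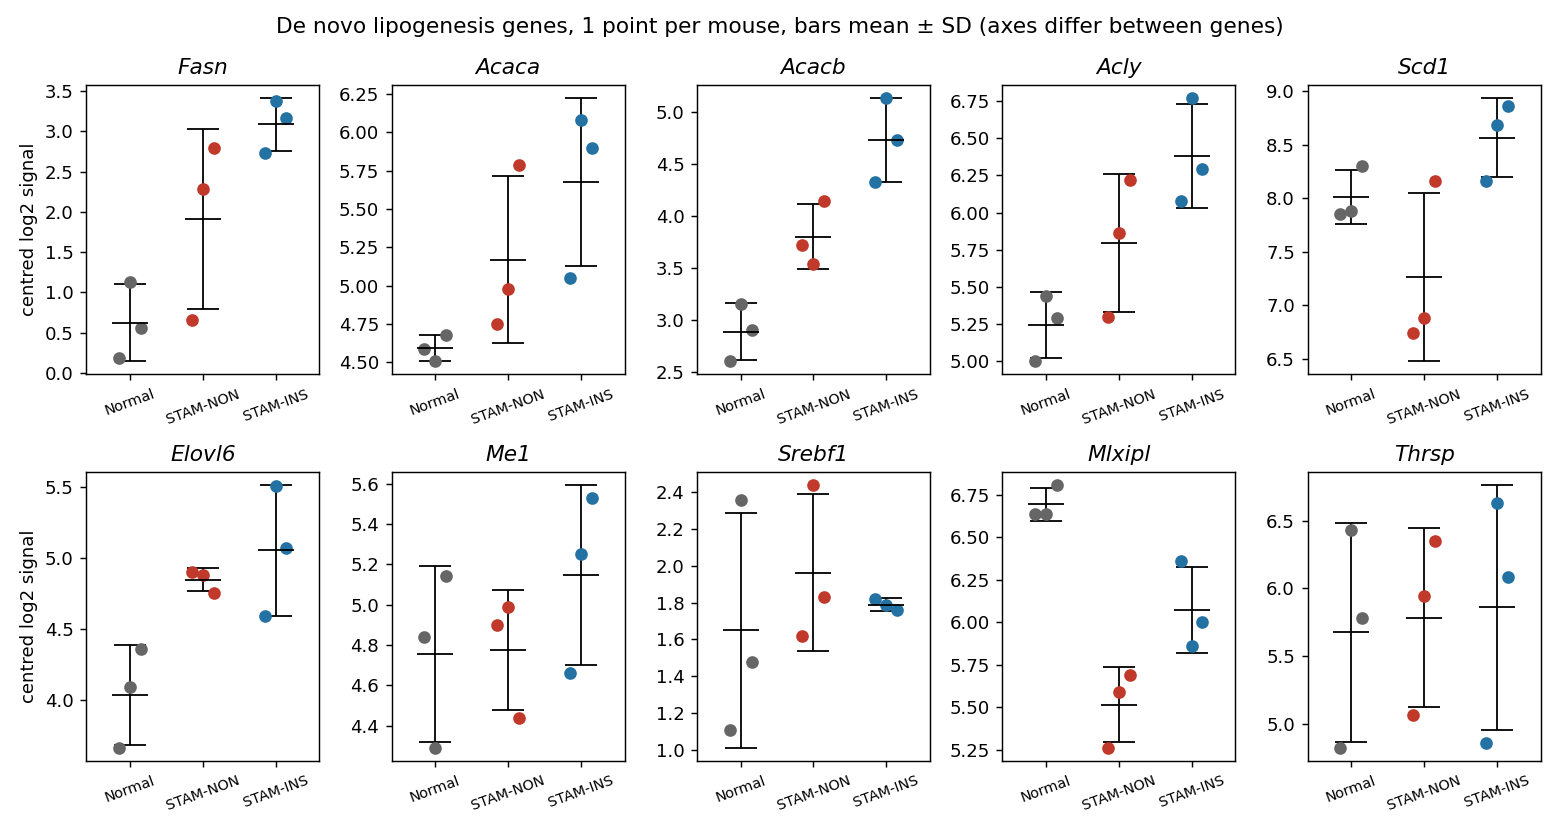
Centred log2 signal (vertical axis, scaled separately for each gene) of the 10 lipogenesis genes in the 3 Normal, 3 STAM-NON and 3 STAM-INS mice, 1 point per mouse, with bars at the mean ± SD. For Acacb the 3 groups stand in steps from Normal up to STAM-INS, for Mlxipl the STAM-NON mice are lowest at 5.26 to 5.69, and for Thrsp and Srebf1 the groups overlap.

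Fasn, fatty acid synthase, which builds palmitate, spread widely in the untreated model. Its centred log2 signal was 0.18, 1.13 and 0.56 in Normal and 0.66, 2.28 and 2.79 in STAM-NON. STAM-NON replicate 1 lay within the Normal range and the other STAM-NON mice lay above it. The difference was 1.29 (SE 0.51, 95% interval 0.12 to 2.45, limma adjusted p = 0.111). Without STAM-NON replicate 1 it was 1.91 and passed, with a limma adjusted p of 0.0271.

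Scd1, which puts the double bond into stearate and palmitate, was the enzyme gene with a negative difference between STAM-NON and Normal. The Normal mice had 7.85, 7.88 and 8.30, and the STAM-NON mice had 6.74, 6.88 and 8.16. STAM-NON replicates 1 and 2 lay below all Normal mice, and replicate 3 lay inside their range. The difference was -0.75 (SE 0.37, 95% interval -1.60 to 0.10, limma adjusted p = 0.182). Without STAM-NON replicate 3 it was -1.20 (limma adjusted p = 0.0352).

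Elovl6, the elongase that takes palmitate to stearate, was close to the threshold. Normal mice had 3.66, 4.09 and 4.36, and STAM-NON mice had 4.90, 4.88 and 4.75, without overlap. The difference was 0.81 (SE 0.25, limma adjusted p = 0.0577), and it passed in 9 of 24 alternative analyses, the methods' t-test without adjustment among them.

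Acaca, the cytosolic acetyl-CoA carboxylase, had 4.59, 4.51 and 4.68 in Normal and 4.75, 4.98 and 5.79 in STAM-NON. The groups did not overlap, but STAM-NON replicate 3 stood well above the other mice of its group, and the difference of 0.58 did not pass (limma adjusted p = 0.229). Acly, ATP-citrate lyase, had 5.0, 5.44 and 5.29 in Normal and 5.30, 5.86 and 6.22 in STAM-NON, a difference of 0.55 (limma adjusted p = 0.171). Its STAM-NON replicate 1 lay inside the Normal range, as it did for Fasn.

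Me1, malic enzyme, which yields NADPH, Srebf1 and Thrsp, the Spot 14 gene that follows lipogenic state, differed little between these groups. The differences were 0.02 for Me1, 0.31 for Srebf1 and 0.11 for Thrsp, with limma adjusted p of 0.964, 0.50 and 0.903. The 95% intervals were wide, -0.64 to 0.68 for Me1, -0.41 to 1.04 for Srebf1 and -1.17 to 1.38 for Thrsp. They do not show that the levels were equal.

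A share of 1 in 10 in each direction is near the background of this comparison. The STAM-NON arrays all lay in row 1 of their slide and the Normal arrays all in row 2, and with the row as a block, which the STAM-INS arrays of both rows alone could estimate, none of the 10 genes passed and the median of their differences was 1.25. Groups did not overlap for 3 of the 10 in the upward direction and 1 in the downward direction, against 13.2% and 28% of all probes. The median difference was 0.43 over the 10 genes and -0.13 over all tested probes. With arrays centred on spike-in controls these were 0.73 and 0.17. The split of called probes moved with the scaling, from 1655 higher and 2565 lower to 2370 and 446 when centred on spike-ins, 2077 and 1064 with the percentile over probes detected on all arrays, 1538 and 1428 with quantile normalisation and 1313 and 3387 after normexp background correction.

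The second comparison asked what insulin treatment did to the genes in STAM mice, within 1 slide. No lipogenesis gene passed the test between STAM-INS and STAM-NON. The differences were positive for 9 of the 10 genes, largest for Scd1 (2.48-fold), Fasn (2.26-fold), Acacb (1.90-fold) and Acly (1.5-fold), and only Srebf1 was negative. Only 0.0913% of all probes passed in this comparison, 0.0114% higher and 0.0799% lower, so that a lack of calls is also the usual outcome over the array. At an unadjusted p below 0.05, limma gave 4 of the 10 genes, against 8.78% of all probes, and the methods' t-test gave 2, against 5.7% of all probes. After Benjamini-Hochberg adjustment the methods' t-test gave 0.

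For Scd1 the STAM-INS mice had 8.16, 8.69 and 8.86, against 6.74, 6.88 and 8.16 in STAM-NON. The lowest STAM-INS mouse tied with the highest STAM-NON mouse. The difference was 1.31 (SE 0.37, n = 3 each, limma adjusted p = 0.452, unadjusted p = 0.00712). STAM-INS differed from Normal by 0.56 (limma adjusted p = 0.324), so that the STAM-NON mice were the group with the lowest mean.

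For Fasn the STAM-INS mice had 2.73, 3.37 and 3.16, a narrower range than the 0.66 to 2.79 of STAM-NON. The ranges met only at STAM-NON replicate 3 and STAM-INS replicate 1. The difference was 1.17 (SE 0.51, limma adjusted p = 0.568, unadjusted p = 0.0481).

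For Acacb every STAM-INS mouse lay above every STAM-NON mouse, with a difference of 0.93 (SE 0.25, limma adjusted p = 0.411, unadjusted p = 0.00505). The other probe of Acacb differed by 0.80, also without overlap. For Mlxipl every STAM-INS mouse again lay above every STAM-NON mouse, by 0.56 in the means (SE 0.17, limma adjusted p = 0.473, unadjusted p = 0.00896), but its other probe differed by 0.05 (95% interval -0.22 to 0.31).

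Acly had 6.08, 6.77 and 6.29 in STAM-INS, above STAM-NON by 0.59 (limma adjusted p = 0.574), and its other probe differed by 0.69 without overlap. Acaca had 5.05, 6.08 and 5.90, a difference of 0.51 (limma adjusted p = 0.694). Elovl6 had 4.59, 5.51 and 5.07, a difference of 0.21 with a 95% interval of -0.36 to 0.78. For both genes STAM-INS replicate 1 was the lowest mouse of its group and lay among the STAM-NON mice or below them.

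Me1 had 4.66, 5.25 and 5.53 in STAM-INS against 4.90, 4.99 and 4.44 in STAM-NON, and its difference was 0.37 (95% interval -0.29 to 1.03). Its other probes differed by 0.84 and 0.44, and neither passed. Srebf1 had 1.82, 1.79 and 1.76 in STAM-INS against 1.62, 2.44 and 1.83 in STAM-NON, a difference of -0.17 (95% interval -0.90 to 0.55). Thrsp had 4.86, 6.63 and 6.08 in STAM-INS against 5.06, 5.94 and 6.35, a difference of 0.08 (95% interval -1.20 to 1.35). Srebf1 was close together in the insulin-treated mice, while Thrsp ranged widely in every group.

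**Figure D2:**
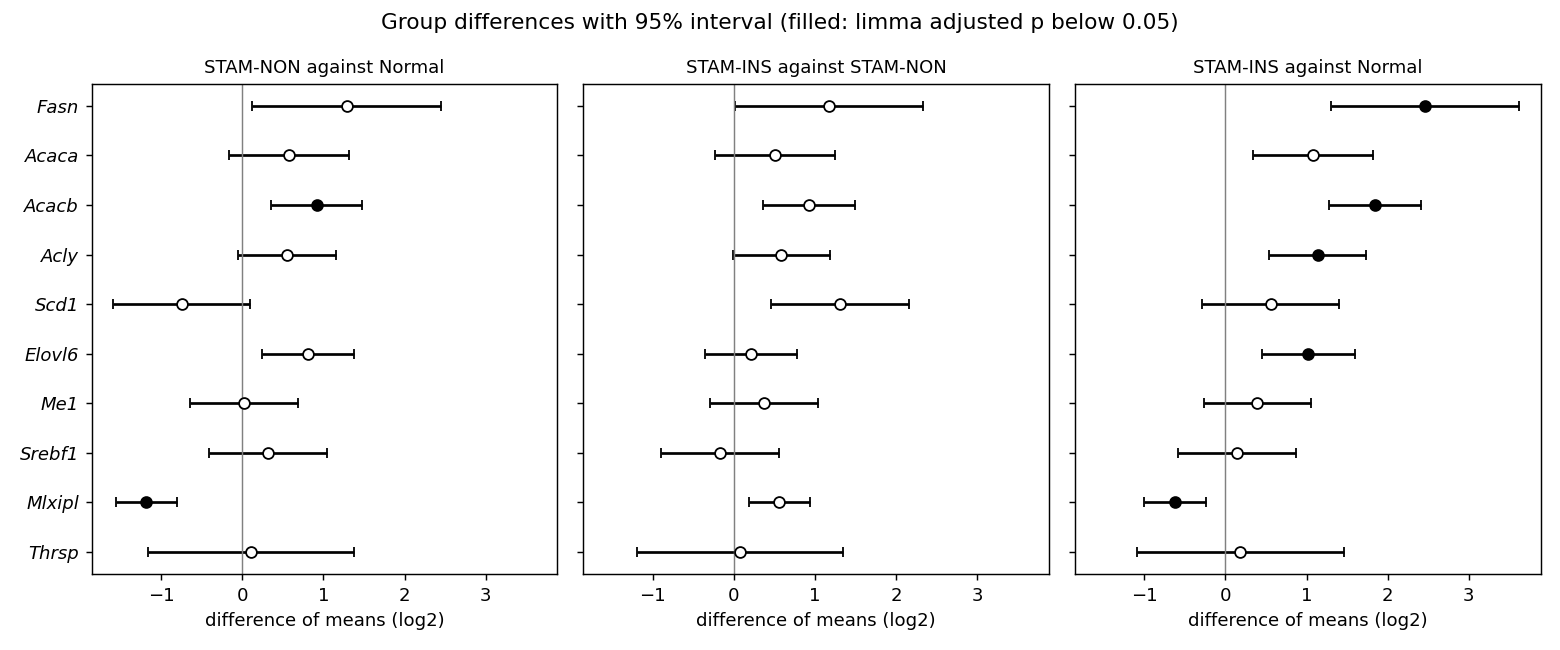
Difference of group means on the log2 scale (horizontal axis) with its 95% interval from limma for each of the 10 lipogenesis genes in the 3 comparisons, with filled points where the adjusted p was below 0.05. Acacb and Mlxipl are filled for STAM-NON against Normal, no gene is filled for STAM-INS against STAM-NON, and 5 are filled for STAM-INS against Normal.

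Groups did not overlap in the upward direction for 2 of the 10 genes, Acacb and Mlxipl, against 7.24% of all probes, and for none in the downward direction, against 4.92%. The median difference was 0.53 over the 10 genes and 0.03 over all tested probes, or 0.31 and -0.20 with arrays centred on spike-ins. After normexp the split of all calls was 5 higher and 12 lower, against 3 and 21. The arrays of STAM-NON and of STAM-INS replicate 1 lay in row 1 of the slide and those of STAM-INS replicates 2 and 3 in row 2. Within row 1, STAM-INS replicate 1 exceeded the STAM-NON mean by 0.82 for Fasn, 0.52 for Acacb, 0.29 for Acly, 0.89 for Scd1 and 0.84 for Mlxipl. It lay below that mean for the other 5 genes, from -0.12 for Me1 to -0.92 for Thrsp. The median within row 1 was 0.09, with 1 insulin-treated mouse and no test.

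The third comparison set insulin-treated STAM mice against Normal. Of the 10 genes, 4 were higher in STAM-INS, namely Fasn (5.5-fold), Acacb (3.59-fold), Acly (2.20-fold) and Elovl6 (2.03-fold). Mlxipl was lower, 1.54-fold. Over all probes 13.9% passed in this comparison, 5.16% higher and 8.72% lower. These enzymes act from the splitting of citrate to the elongation of palmitate. Acaca, between them in that route, did not pass.

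The Fasn mean was 3.08 ± 0.33 for the STAM-INS mice, against 0.62 ± 0.48 for the Normal mice (SD, n = 3 per group). The lowest STAM-INS mouse had 2.73 and the highest Normal mouse 1.13. The difference was 2.46 (SE 0.51, limma adjusted p = 0.0198). Acacb differed by 1.84 (SE 0.25, limma adjusted p = 0.00456). For the second probe the difference was 1.81 (limma adjusted p = 0.00266).

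For Acly the difference was 1.14 (SE 0.26, limma adjusted p = 0.0285). The second Acly probe gave 1.33 (limma adjusted p = 0.00904). Elovl6 was higher by 1.02 (SE 0.25, limma adjusted p = 0.0330). Acaca differed by 1.08 without overlap (SE 0.32, limma adjusted p = 0.0584), and its other probes by 0.88 and 0.86 with limma adjusted p of 0.138 and 0.0729. Acaca passed in 9 of 24 alternative analyses.

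Mlxipl was lower by 0.62 in the means, at -0.62 (SE 0.17, limma adjusted p = 0.0425), and the STAM-INS mice stood between the STAM-NON and Normal mice. Its other probe differed by -0.25 (limma adjusted p = 0.172), and the call of the main probe was lost in 13 of 24 alternative analyses, among them centring on the median or on spike-ins. Scd1, Me1, Srebf1 and Thrsp had differences of 0.56, 0.39, 0.14 and 0.18, and none passed.

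Groups did not overlap for 5 of the 10 genes upward and 1 downward, against 15.1% and 29% of all probes. The median difference was 0.79 over the 10 genes and -0.09 over all tested probes. The split of called probes was 1355 higher and 2292 lower, and it became 974 and 895 with arrays centred on spike-ins and 1679 and 1298 with the percentile over probes detected on all arrays. Acacb passed in all 24 alternative analyses. The number of genes called fell from 5 to 1, Acacb, without STAM-INS replicate 2 or 3 or Normal replicate 1 or 3, and to 2, Fasn and Acacb, without Normal replicate 2. Without STAM-INS replicate 1, 6 of the 10 passed, the same 5 and Acaca. That left STAM-INS replicates 2 and 3 and all Normal mice, whose arrays all lay in row 2 of the slides. The spread was still estimated with the STAM-NON arrays of row 1, so this was not a separate fit of row 2.

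Because the comparisons share the same Normal and STAM-NON arrays, their differences are given side by side and were not set against each other. The order of the group means was Normal, STAM-NON, STAM-INS for Fasn, Acaca, Acacb, Acly, Elovl6, Me1 and Thrsp, of which only Acacb was separated from its lower neighbour by the test, at the step from Normal to STAM-NON. For Scd1 the order was STAM-NON, Normal, STAM-INS, for Mlxipl STAM-NON, STAM-INS, Normal, and for Srebf1 Normal, STAM-INS, STAM-NON. Neighbours differed by the test for Mlxipl between STAM-INS and Normal.

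**Figure D3:**
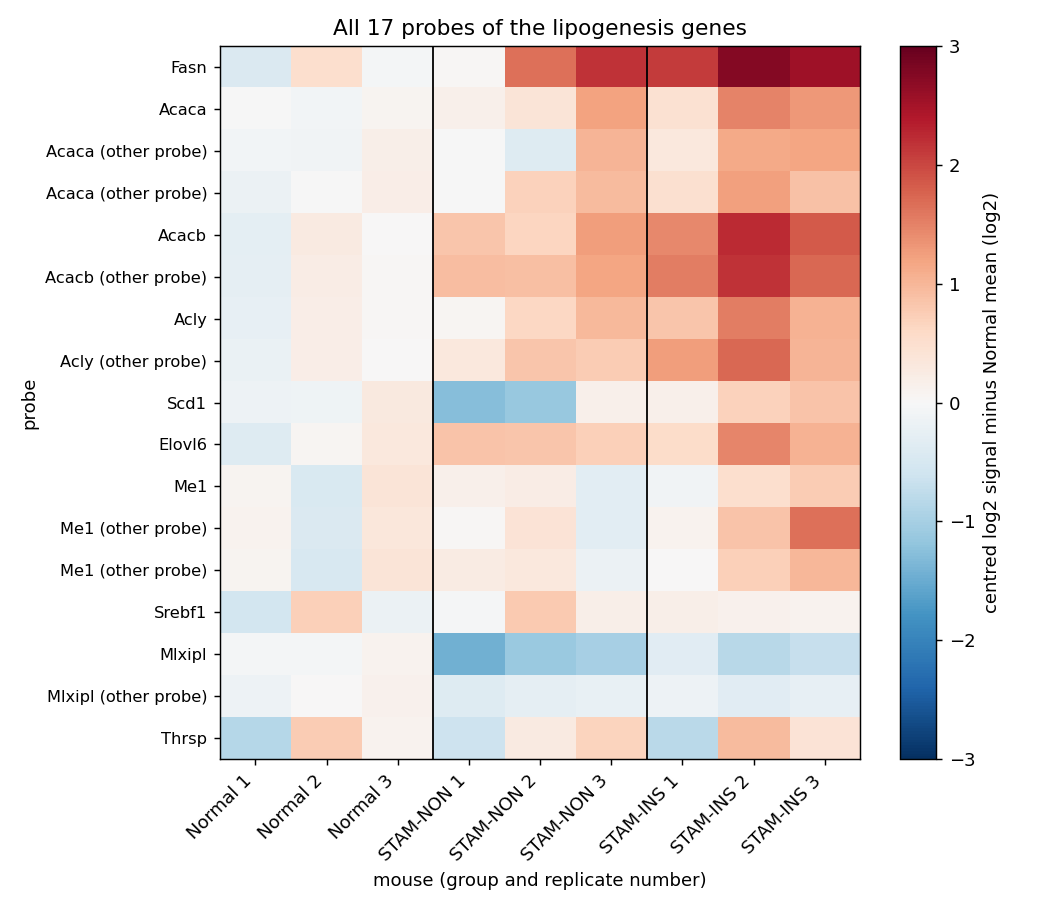
All 17 probes of the lipogenesis genes (rows) in the 9 mice (columns), coloured by centred log2 signal minus the mean of the 3 Normal mice on the log2 scale. The probes of Fasn, Acaca, Acacb and Acly are above the Normal mean in all 3 STAM-INS mice, both Mlxipl probes are below it in all 6 STAM mice, and STAM-NON replicate 1 is paler than its group for Fasn and Acly.

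Fasn, Acaca, Acacb and Acly varied together, and within groups Thrsp and Scd1 varied with them. Over the 9 arrays, Fasn and Acly had r = 0.98, and the 6 pairs among Fasn, Acaca, Acacb and Acly lay between 0.88 and 0.98. Against these 4 genes, r over the 9 arrays was 0.76 to 0.87 for Elovl6, 0.45 to 0.59 for Scd1 and 0.40 to 0.57 for Thrsp. After each group's mean was removed, the 6 pairs lay between 0.56 and 0.92, and against the same 4 genes r was 0.72 to 0.90 for Thrsp and 0.65 to 0.90 for Scd1. For Elovl6 it was 0.23 to 0.67, for Srebf1 -0.11 to 0.56, for Mlxipl -0.34 to 0.36 and for Me1 -0.26 to 0.18. Over all 45 pairs the median r was 0.40, or 0.41 within groups. These are descriptions over 9 arrays that share groups, slides and scaling.

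A score for each mouse, the mean over the 10 genes of the deviation from the gene's mean over all arrays, was -0.65, -0.19 and -0.25 in Normal, -0.49, -0.04 and 0.24 in STAM-NON and 0.08, 0.73 and 0.56 in STAM-INS. Normal and STAM-INS did not overlap on it, while STAM-NON overlapped with both. Of 13376 other genes compared, those most like this score over the 9 arrays were Gprc5a, Il27, C4b, Lhx6, Acpp and Itih4, with r from 0.954 to 0.967. They are given as a description, chosen as the highest of many.

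Carbon, NADPH and unsaturated chains for the same fats come from a wider set of genes. Of 16 other genes of supply and desaturation, 5 were higher in STAM-NON than in Normal and 10 were higher in STAM-INS than in Normal, with none lower. Over all probes 6.3% and 5.16% were called higher in these comparisons. Counts for this list and for the lists that follow were not taken in the alternative analyses, so how firm they are was not tested. The 10 include Pnpla3, which was well above background in no Normal mouse and entered the test through STAM-INS alone. Taken against the dimmest signal well above background, it was higher in STAM-INS than in Normal by at least 3.46-fold. None of the 16 passed between STAM-INS and STAM-NON. The list medians were 0.39 in STAM-NON against Normal, 0.77 in STAM-INS against Normal and 0.34 between the STAM groups. Elovl5, which elongates polyunsaturated chains, was higher by 1.22 in STAM-NON and by 1.97 in STAM-INS (limma adjusted p = 0.0129 and 0.00246). G6pdx and Pgd, the NADPH-yielding dehydrogenases of the pentose phosphate route, were higher by 1.33 and 1.1 in STAM-NON and by 1.85 and 1.25 in STAM-INS. G6pdx was at 0.16, 0.09 and 0.16 in the Normal mice and between 0.75 and 2.06 in all STAM mice. In STAM-INS against STAM-NON, Acss2, which makes acetyl-CoA from acetate, differed by 1.07 and Elovl5 by 0.75, and neither passed (limma adjusted p = 0.325 and 0.432).

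Cholesterol synthesis is the other branch under SREBP control. Of 18 genes of cholesterol synthesis and uptake, 6 were higher in STAM-NON and 11 in STAM-INS against Normal, and none was lower. The shares called higher over all probes were 6.3% and 5.16%. No gene passed between the STAM groups, although all 18 differences were positive there, with a median of 0.55. The medians against Normal were 0.67 for STAM-NON and 1.17 for STAM-INS. Mvd, mevalonate diphosphate decarboxylase, was higher by 2.04 and 3.07 (limma adjusted p = 0.0152 and 0.00338). Sqle, squalene epoxidase, was higher by 2.40 in STAM-NON and 3.17 in STAM-INS. Hmgcs1, which makes HMG-CoA, was higher by 1.07 and 1.67, and Pmvk, phosphomevalonate kinase, by 0.79 and 1.55, in the same order. Between the STAM groups Pmvk differed by 0.76 and Sc5d, a late desaturase of the route, by 0.55 (limma adjusted p = 0.361 and 0.473).

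**Figure D4:**
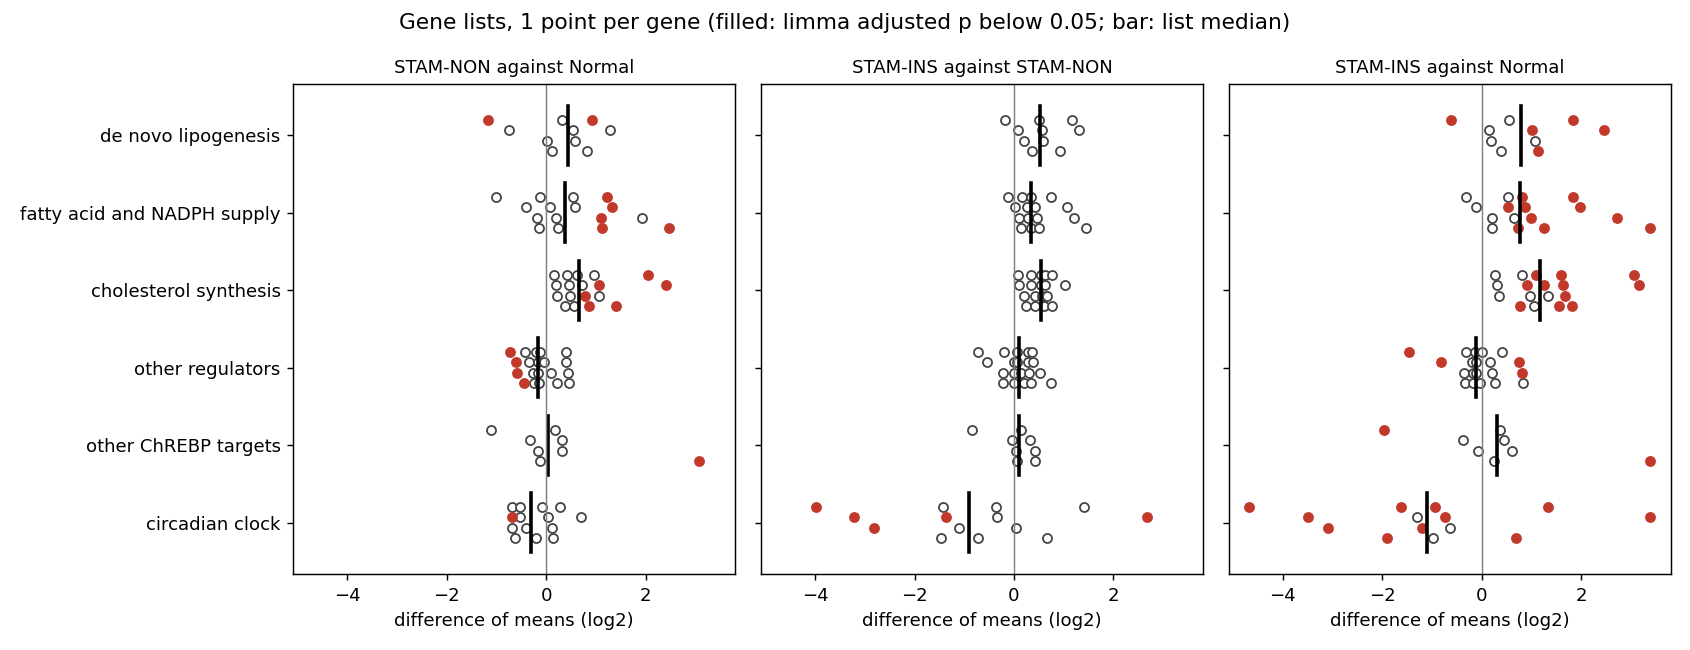
Difference of group means on the log2 scale (horizontal axis) for each gene of 6 lists in the 3 comparisons, 1 point per gene, filled where the limma adjusted p was below 0.05, with a bar at the list median. The cholesterol genes are all to the right of 0 in the 3 panels, the other regulators lie around 0, and the clock genes spread far to both sides in the panels that hold STAM-INS.

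The other regulators of lipogenic transcription did not rise as a list. Of 20, none was higher and 4 were lower in STAM-NON than in Normal, and 2 were higher and 2 lower in STAM-INS than in Normal, with medians of -0.17 and -0.11. Against Normal, 6.3% of all probes were called higher and 9.76% lower in STAM-NON, and 5.16% and 8.72% in STAM-INS. Usf2, a factor of the E box, was lower by 0.60 in the means of STAM-NON, at -0.60 (limma adjusted p = 0.0168), and at -0.82 in STAM-INS. Ppargc1b, a coactivator of SREBP, was at -0.73 and -1.46, and Rxra, the partner of the LXR receptors, at -0.61 in STAM-NON. Insig1, which holds SREBP in the endoplasmic reticulum and is itself an SREBP target, was higher by 0.81 in STAM-INS (limma adjusted p = 0.0343). Between the STAM groups none of the 20 passed (median 0.10), and the lowest p-values belonged to Ppargc1b, at -0.73, and Nfyb, a subunit of NF-Y, at 0.52.

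Other known targets of ChREBP, the Mlxipl product, did not move one way. Of 8, Fgf21, a hormone of the fasted and the sugar-fed liver, was the one called in STAM-NON against Normal, higher by 3.07 (limma adjusted p = 0.0125). In STAM-INS it was higher by 3.40 (limma adjusted p = 0.00676), and Txnip, a glucose-induced inhibitor of thioredoxin, was lower, at -1.97 (limma adjusted p = 0.0113). Between the STAM groups none passed, with Txnip at -0.84 and Khk, fructokinase, at 0.41. The medians were 0.03 in STAM-NON and 0.31 in STAM-INS against Normal, and 0.10 between the STAM groups. Of all probes, 6.3% were called higher and 9.76% lower in STAM-NON against Normal, and 5.16% and 8.72% in STAM-INS against Normal.

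Among 8 genes that insulin represses, none passed between STAM-INS and STAM-NON (median -0.27), where Foxo1 differed by -0.34 and Pck1, the gluconeogenic enzyme, by -0.50. None passed between STAM-NON and Normal (median 0.33), where Igfbp1 differed by 2.16 (limma adjusted p = 0.0790) and Ppargc1a by 0.54. Igfbp1 differed by 0.06 between STAM-INS and STAM-NON, where 3 of the 8 differences were positive. It differed by 2.22 between STAM-INS and Normal (limma adjusted p = 0.0803). Foxo1, the insulin-restrained transcription factor, was lower in STAM-INS than in Normal, at -0.64 (limma adjusted p = 0.0326), 1 of 8 with a median of 0.21. The share of all probes called lower there was 8.72%.

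The circadian clock also drives lipogenic genes over the day, and its list was chosen with earlier results of these data known. Of 14 tested clock genes, 1 was higher and 4 lower in STAM-INS than in STAM-NON, Ciart and Per3 among the 4. Over the whole array 3 probes (0.0114%) were called higher and 21 (0.0799%) lower there. Arntl (Bmal1), the activator of the clock, was at 1.24, 1.20 and 0.83 in STAM-INS, -1.90, -1.69 and -1.21 in STAM-NON and -1.97, -2.08 and -2.86 in Normal. It was higher in STAM-INS by 2.69 against STAM-NON and by 3.40 against Normal (limma adjusted p = 0.0162 and 0.00173). Ciart, a repressor of that activator, was not well above background in any STAM-INS mouse. Taken against the dimmest signal well above background, it was lower in STAM-INS by at least 6.82-fold relative to STAM-NON and by at least 11.0-fold relative to Normal (limma adjusted p = 0.00182 and 0.000575). Per3 was at -3.22 against STAM-NON, but only 1 of 3 STAM-INS mice was well above background, so the size of this difference is uncertain. Ciart and Per3 entered the test through the groups where they were high. Tef was at -1.91 against Normal. Against Normal, 3 clock genes were higher and 8 lower in STAM-INS, Ciart and Per3 among the 8, against 5.16% and 8.72% of all probes. The list medians were -0.91 between the STAM groups, -1.09 in STAM-INS against Normal and -0.31 in STAM-NON against Normal. The part of the clock, or of the hour of collection, in the differences of the lipogenesis genes was not tested.

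Markers of other cells that liver pieces can hold were summed for each mouse. The summed linear signal of 7 macrophage markers, relative to the 75th percentile, was 58.5 to 93.0 in Normal, 110 to 206 in STAM-NON and 97.2 to 233 in STAM-INS. In each comparison with Normal 2 of 7, Clec4f and Cd14, were higher, against 6.3% (STAM-NON) and 5.16% (STAM-INS) of all probes. Clec4f was higher by 0.97 in both, and Cd14 by 1.51 and 1.69. The sum of 7 stellate cell markers was 7.99 to 14.3, 16.8 to 34.4 and 10.3 to 26.3 in the same order, and none passed in any comparison. Col3a1 and Pdgfrb had the lowest p-values in STAM-NON against Normal, at 1.22 and 0.99.

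The sum of 7 dividing cell markers was 1.5 to 2.0 in Normal, 2.17 to 7.71 in STAM-NON and 2.83 to 13.5 in STAM-INS. Ccnb1 was higher by 2.28 in STAM-NON (limma adjusted p = 0.04996), and Plk1 and Ccnb1 by 2.63 and 2.57 in STAM-INS. These were 1 and 2 of 6 tested, against 6.3% and 5.16% of all probes called higher. Ccnb1 was well above background in only 1 of 3 Normal mice, so it entered the test through the STAM groups and its sizes are uncertain. Aurkb was well above background in no mouse. The sum of 11 hepatocyte markers was 6851 to 7108 in Normal, 4592 to 6155 in STAM-NON and 5966 to 6627 in STAM-INS. Cps1, of the urea cycle, was lower by 0.67 in the means of both STAM groups, at -0.67 each, and was the one called of 11. Of all probes, 9.76% were called lower in STAM-NON and 8.72% in STAM-INS against Normal.

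Adipocytes also make fatty acids, and of 6 adipocyte markers the sum was 2.87 to 3.52 in Normal, 8.29 to 45 in STAM-NON and 5.72 to 24.5 in STAM-INS. Lep was well above background in no mouse, Adipoq in 2 STAM-NON, 1 STAM-INS and no Normal mouse, Plin1 in 1 STAM-NON mouse, and Retn in 2 STAM-NON, 1 STAM-INS and no Normal mouse. Of the 2 that could be tested, Fabp4 was higher in STAM-NON than in Normal by 2.85 (limma adjusted p = 0.0344). Cfd did not pass there (limma adjusted p = 0.397). The share of all probes called higher there was 6.3%. Between the STAM groups no marker of these 5 cell lists passed. The part of these cells in the differences of the lipogenesis genes was not tested.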

How the data were processed

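Total liver RNA of 9 male mice was hybridised to 1-colour (Cy3) Agilent mouse arrays. Group and replicate number follow the sample labels. Spot intensity, as deposited by the authors, comes from Feature Extraction 11.5.1.1 and per the file headers is background-subtracted and not normalised between arrays. The labels and the methods name different RNA extraction kits. The 10 genes and all lists were chosen with earlier results of these data known.

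Control spots and flagged spots were left out, spots of a probe were averaged, and log2 intensity was centred on the 75th percentile over the non-control spots of each array. Of 55681 probes, 27656 were named through RefSeq accessions (GRCm38.p6, which is not the mm9 build of the array, so used for names and promoter sequence only). Testing was limited to probes with a share of 0.5 or more of their spots well above background on all 3 arrays of some group, and 13 probes with a flagged value were dropped, leaving 26278. Comparisons used lmFit and eBayes (limma 3.58.1, R 4.3.3) on all 9 arrays, two-sided, with 6 residual degrees of freedom and Benjamini-Hochberg adjustment. The methods name no normalisation or test for the arrays, and their unpaired t-test, used elsewhere in the study, was run as an alternative.

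From each other list, the up to 3 genes past the threshold with the lowest p are named per comparison, or the 2 with the lowest p where none passed. Igfbp1 is given in all 3 comparisons. Alternatives were another background correction (normexp on median signals with an offset of 50, since mean signals were not in the files), other scalings, filters and fits, blocks for row and replicate number, and leaving out each mouse. The percentile over averaged probes and the values within a row were chosen after seeing the data. The code was tested on simulated data. The number of arrays, not a read depth, limits precision. One result of the clock list is not reported here.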

Additional observations from a re-analysis of the deposited data

How the results depend on the processing

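Of the lipogenesis genes, Acacb in STAM-INS against Normal was called in 24 of 24 alternatives, Fasn in 19, Acly in 17, Elovl6 in 16 and Mlxipl in 11. In STAM-NON against Normal, Mlxipl was called in 21 and Acacb in 13. In STAM-NON against Normal, where 2 genes passed, 0 passed with no filter on dim probes, 1 with only the 2 groups compared, 0 with the slide row as a block, 1 with the replicate block and 0 by the methods' t-test after Benjamini-Hochberg adjustment, and from 1 to 3 with a mouse left out. The median difference there became 0.731 with arrays centred on spike-ins and 1.253 with the row block. In STAM-INS against STAM-NON, where 0 passed (4 at an unadjusted p below 0.05 by limma), the methods' t-test without adjustment gave 2. The row block brought the median there to 0.087, which rests on STAM-INS replicate 1 alone and is the median within row 1. In STAM-INS against Normal, where 5 passed, 1 passed with no filter and 2 by the adjusted methods' t-test, and from 1 to 6 with a mouse left out. The cause of these shifts was not tested. The slide could not be fitted as a block against Normal. Same-numbered mice did not deviate together (r from -0.288 to 0.149), so the numbers were not taken as pairs, and the replicate block gave 1, 0 and 4 called genes. It called 2016, 6 and 1872 probes, against 4220, 24 and 3647.

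None of the differences that changed sign was called. Between the STAM groups, centring on spike-ins gave -0.012 for Elovl6 and -0.146 for Thrsp, and the row block gave -0.118 for Acaca, -0.257 for Elovl6, -0.116 for Me1 and -0.921 for Thrsp. With a mouse left out, the differences ran in STAM-NON against Normal from -0.213 to 0.216 for Me1 and from -0.319 to 0.484 for Thrsp. Between the STAM groups they ran from -0.018 to 0.443 for Elovl6, -0.344 to 0.065 for Srebf1 and -0.31 to 0.574 for Thrsp. In STAM-INS against Normal they ran from -0.129 to 0.493 for Srebf1 and from -0.243 to 0.682 for Thrsp. With 3 mice a group, the number of arrays limits the smallest difference that can be called.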
